A study of Homo sapiens with 12 samples.

Results

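The 10 genes described here belong to serine synthesis and the amino acid stress response, and were followed across 4 human lines of anaplastic large cell lymphoma (ALCL): PSAT1, PHGDH, PSPH, SHMT2, MTHFD2, ASNS, CHAC1, TRIB3, DDIT4 and SESN2. They were found by symbol in the array's annotation, and all 10 were measured, out of 18417 named genes. The genes were chosen on earlier values of the same arrays for the difference between side population and main population cells, with PSAT1 picked for its difference in every line. That difference is therefore described without a test, and tests are given only for differences between the lines. Earlier results of these data were known when the genes were chosen, so those tests may not be wholly free of the choice either.

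Cells make serine from a glycolytic intermediate in 3 steps. PHGDH, the first enzyme, oxidises 3-phosphoglycerate, PSAT1 adds an amino group taken from glutamate, and PSPH removes the phosphate. SHMT2 and MTHFD2 then work in mitochondria, where the carbon of serine is passed to folate for nucleotide synthesis. ATF4 is a transcription factor whose protein accumulates when the translation factor eIF2 is phosphorylated under amino acid shortage or other stress, and all 10 genes are known among its targets. The targets include enzymes that supply amino acids, such as ASNS, and genes that restrain growth signalling or act in cell death, such as SESN2, DDIT4, TRIB3 and CHAC1.

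The established lines SUDHL-1, DEL, Karpas299 and SUPM2 come from this lymphoma of T cells, and each was grown to logarithmic phase in medium with serum, with no drug or gene transfer named. Cells with little of the Hoechst DNA dye, the side population (SP), were sorted by flow cytometry apart from the main population (MP), which holds the dye. SUDHL-1 was measured on 3 SP and 3 MP Affymetrix arrays, and DEL, Karpas299 and SUPM2 on 1 SP and 1 MP array each, which makes 12 arrays. Every line is thus a single model of the disease, and nothing names separate cultures. A p-value here reflects just the scatter pooled over these arrays, which may be technical and comes mostly from the SUDHL-1 replicates.

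Values are log2 signals as deposited, on which a difference of 1 is a doubling. The 6 SUDHL-1 arrays had medians of 4.83 to 5.0, below the 5.24 to 5.35 of the rest. Over all genes the median difference was -0.28 for SUDHL-1 minus DEL, -0.31 for SUDHL-1 minus Karpas299 and -0.37 for SUDHL-1 minus SUPM2, so each SUDHL-1 difference below has to be read against that shift. Whether it came from the cells or from how the SUDHL-1 arrays were made cannot be told apart. Of 11 genes listed as markers of this lymphoma or of T cells, 10 were measured, and the missing one was ALK. NPM1 read 12.03 to 12.5, IL2RA 10.9 to 12.2 and BATF3 10.5 to 11.1 on every array. Other markers of that list differed between the lines. CD4 was low in SUDHL-1 and DEL, at means of 3.93 and 4.803, against 9.60 in Karpas299 and 9.49 in SUPM2, and TMOD1, at 4.51 and 6.45, against 9.53 and 9.47. CD2 had a mean of 9.19 in SUPM2 and at most 4.44 elsewhere, and TNFRSF8, which encodes CD30, had means of 7.02 to 9.78. The list averaged 7.88 to 8.25 per array for SUDHL-1, 8.70 to 8.75 for DEL, 9.59 to 9.93 for Karpas299 and 10.1 to 10.2 for SUPM2.

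Markers of other blood cells also moved with the line. The 9 myeloid markers averaged 4.47 to 4.63 per array for SUDHL-1, 5.63 to 6.20 for DEL, 5.39 to 5.66 for Karpas299 and 5.48 to 5.64 for SUPM2. CSF1R, a macrophage growth factor receptor, had a mean of 5.10 in SUDHL-1, against 7.86 for DEL, 7.54 for Karpas299 and 8.27 for SUPM2, and S100A9 4.87, against 8.46, 7.69 and 7.38 in the same order. S100A8 had means of 3.00 for SUDHL-1, 7.47 for DEL, 5.85 for Karpas299 and 3.55 for SUPM2, while LYZ read 2.44 to 3.25 and MPO 3.53 to 4.14 over the 12 arrays. The 7 B-cell markers averaged 4.06 to 4.32 per array for SUDHL-1, 4.49 to 4.76 for DEL, 4.88 to 5.03 for Karpas299 and 4.77 to 5.05 for SUPM2. The defining B-cell gene MS4A1 stayed between 2.83 and 3.37, PAX5 had a mean of 6.71 in Karpas299, and BLK was lowest in SUDHL-1 at 4.10. The part of these markers in the differences between lines was not tested.

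PSAT1 differed most between the lines among the 10 genes. It was high in DEL and SUPM2, intermediate in SUDHL-1 and low in Karpas299, and within each line its SP value lay above its MP value. Signals were 7.68, 7.60 and 7.58 in SP and 7.43, 6.70 and 7.34 in MP cells of SUDHL-1. They were 9.89 in SP and 9.03 in MP cells of DEL, 5.60 in SP and 4.76 in MP cells of Karpas299, and 9.62 in SP and 9.26 in MP cells of SUPM2. No array of one line overlapped with those of another, apart from DEL and SUPM2, whose values interleaved. In such bulk RNA, fewer cells with the transcript and less transcript per cell cannot be told apart.

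The PSAT1 signal was 19.4-fold higher in DEL than in Karpas299, a log2 difference of 4.28 (SE 0.25, limma, adjusted p = 4.12e-06). It was lower in Karpas299 than in SUPM2 by a similar amount, with a difference of -4.26 (SE 0.25, adjusted p = 3.21e-06). The neighbours DEL and SUPM2 were not told apart, at 0.02 (SE 0.25, adjusted p = 0.973). SUDHL-1 stood below DEL by -2.07 and above Karpas299 by 2.21, and it differed from SUPM2 by -2.05 (SE 0.20 each). After each array was centred on its median, these 3 differences were -1.73, 2.55 and -1.64, all still called. The distance of 4.28 between its highest and lowest line was larger than that of 99.1% of named genes, for which the median was 0.82.

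PHGDH, the enzyme that opens the pathway, did not follow PSAT1. Its signals were 6.41, 6.68 and 7.45 in SP and 7.04, 7.11 and 6.43 in MP cells of SUDHL-1, and 8.53 in SP and 8.45 in MP cells of DEL. They were 5.76 in SP and 5.67 in MP cells of Karpas299, and 5.12 in SP and 5.33 in MP cells of SUPM2. DEL was the high line for both genes, but SUPM2, high for PSAT1, was the lowest line for PHGDH. A probe set annotated to both MZT2B and PHGDH was set aside for its 2 symbols. It did not have this order, reading 9.75 to 10.67 over all arrays, with SUPM2 at 10.67 in SP and 10.66 in MP cells.

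PHGDH was higher in DEL than in Karpas299 by 2.78 (SE 0.32, adjusted p = 0.000463) and higher in DEL than in SUPM2 by 3.27 (SE 0.32, adjusted p = 0.000131), a 9.62-fold ratio to SUPM2. Karpas299 and SUPM2 were not told apart (0.49, adjusted p = 0.427). SUDHL-1 lay between, at -1.64 against DEL, 1.14 against Karpas299 and 1.63 against SUPM2, all called. Without the MP array of Karpas299 the SUDHL-1 minus Karpas299 difference was 1.08 and no longer called (adjusted p = 0.0595).

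PSPH, the last enzyme of serine synthesis, varied less by the probe set that stood for it. Signals were 6.59, 7.48 and 7.09 in SP and 7.51, 7.10 and 7.40 in MP cells of SUDHL-1, 8.24 in SP and 7.72 in MP cells of DEL, 7.17 in SP and 7.24 in MP cells of Karpas299, and 8.46 in SP and 8.09 in MP cells of SUPM2. The arrays of DEL and SUPM2 lay above those of the other lines. SUDHL-1 was lower than DEL by -0.79 (adjusted p = 0.0263) and lower than SUPM2 by -1.08 (adjusted p = 0.00411).

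Both PSPH calls depended on the scaling, since after centring they were -0.44 (adjusted p = 0.233) and -0.67 (adjusted p = 0.0726). The first was also lost without the SP array of DEL (-0.47, adjusted p = 0.333) and the second without the SP array of SUPM2 (-0.85, adjusted p = 0.0759). Karpas299 minus SUPM2 was -1.07 (adjusted p = 0.0505), just outside the threshold. It was called without SP array 1 of SUDHL-1 (adjusted p = 0.0189). A second PSPH probe set was more variable, at 3.49 to 6.43 in SUDHL-1, 7.79 in SP and 7.46 in MP cells of DEL, 5.49 in SP and 2.74 in MP cells of Karpas299, and 8.17 in SP and 8.33 in MP cells of SUPM2. With both probe sets averaged, the PSPH differences were -1.80 for SUDHL-1 minus DEL (adjusted p = 0.00804), -2.26 for SUDHL-1 minus SUPM2 (adjusted p = 0.00167) and -2.60 for Karpas299 minus SUPM2 (adjusted p = 0.012).

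By the probe sets that stood for them, the mitochondrial folate enzymes SHMT2 and MTHFD2 were the flattest of the 10 genes. SHMT2 had 9.94, 10.23 and 10.49 in SP and 10.15, 10.22 and 10.25 in MP cells of SUDHL-1, 10.39 in SP and 10.35 in MP cells of DEL, 10.17 in SP and 10.24 in MP cells of Karpas299, and 10.88 in both populations of SUPM2. Its SUPM2 arrays lay above all others, and the rest overlapped. SUDHL-1 was lower than SUPM2 by -0.67 (SE 0.15, adjusted p = 0.00319), which was -0.26 after centring and not called (adjusted p = 0.177). Karpas299 was lower than SUPM2 by -0.68 (SE 0.18, adjusted p = 0.0373).

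That last SHMT2 call was close to the threshold. It was lost after centring (-0.61, adjusted p = 0.0589) and in a fit of only the 6 arrays of DEL, Karpas299 and SUPM2 (adjusted p = 0.0922). It was lost without SP array 2, MP array 1 or MP array 2 of SUDHL-1 (adjusted p = 0.0502, 0.0563 and 0.0542) and without either DEL array (adjusted p = 0.0565 each). It was also lost without the SP or MP array of Karpas299 (adjusted p = 0.188 and 0.136) and without the SP or MP array of SUPM2 (adjusted p = 0.128 and 0.134). SHMT2 in SUDHL-1 minus DEL changed sign with the scaling, at -0.16 as deposited and 0.19 after centring, and was called in neither.

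MTHFD2 had 10.52, 10.30 and 10.41 in SP and 10.06, 10.17 and 10.66 in MP cells of SUDHL-1, 10.56 in SP and 10.32 in MP cells of DEL, 10.13 in SP and 10.41 in MP cells of Karpas299, and 10.84 in SP and 10.67 in MP cells of SUPM2. It passed the test in 0 of 6 pairs of lines in limma. In 2 pairs the unadjusted p was under 0.05, Karpas299 minus SUPM2 (-0.49) and SUDHL-1 minus SUPM2 (-0.40), and without MP array 3 of SUDHL-1 the second was -0.48 with an adjusted p of 0.0274. Its SUDHL-1 minus DEL difference was -0.09 as deposited and 0.26 after centring, neither called.

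The other MTHFD2 probe set gave a different picture for SUDHL-1. It read 7.53 to 7.95 on the 6 SUDHL-1 arrays but 9.46 to 10.68 on the other 6. When both probe sets were averaged, SUDHL-1 minus Karpas299 was -0.89 (adjusted p = 0.00197), against 0.09 (adjusted p = 0.713) for the main probe set, while SUDHL-1 minus DEL was -1.13 and SUDHL-1 minus SUPM2 was -1.54, both called. The level of MTHFD2 in SUDHL-1 relative to the other lines is therefore not settled by these arrays.

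**Figure D1:**
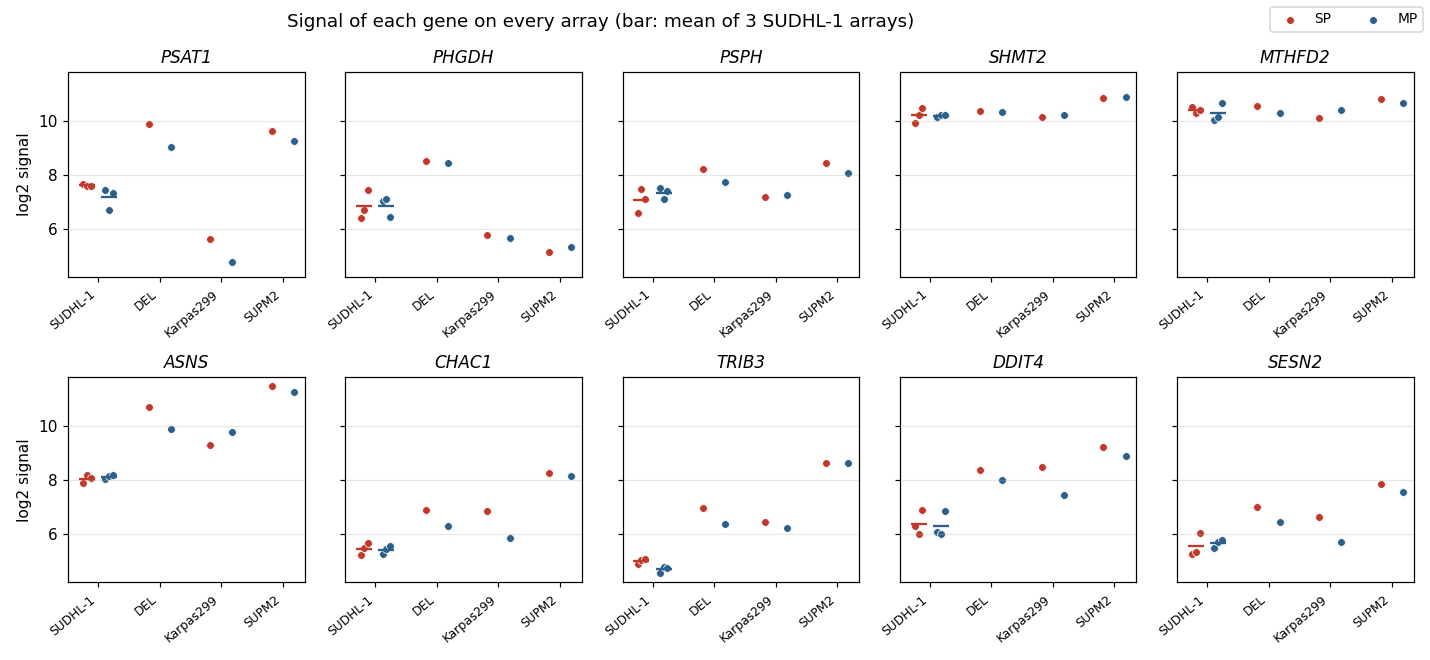
Log2 signal (vertical axis) of the 10 genes on every array, by cell line (horizontal axis), with SP points left of MP points and a bar at the mean of 3 SUDHL-1 arrays. PSAT1 is lowest in Karpas299 (5.60 and 4.76) and PHGDH is lowest in SUPM2 (5.12 and 5.33). SHMT2 and MTHFD2 stay between 9.94 and 10.88 by the probe sets that stood for them, while a second MTHFD2 probe set, not drawn, was lower in SUDHL-1. The 5 genes of the lower row are on average lowest in SUDHL-1 and highest in SUPM2.

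The 5 stress genes shared 1 order of lines: highest in SUPM2, then DEL, then Karpas299, and lowest in SUDHL-1, which remained below the other lines for all 5 after centring. The neighbours DEL and Karpas299 were not told apart for any of them (adjusted p between 0.153 and 0.901). ASNS, which makes asparagine, had 7.88, 8.20 and 8.09 in SP and 8.02, 8.15 and 8.20 in MP cells of SUDHL-1, 10.74 in SP and 9.89 in MP cells of DEL, 9.31 in SP and 9.78 in MP cells of Karpas299, and 11.49 in SP and 11.28 in MP cells of SUPM2. The lines did not overlap. SUDHL-1 was lower than DEL by -2.23, lower than Karpas299 by -1.45 and lower than SUPM2 by -3.29 (SE 0.22 each, adjusted p = 2.38e-05, 0.000382 and 1.23e-06), a 9.81-fold ratio for the last pair. After centring the 3 differences were -1.88, -1.12 and -2.88, all called.

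Among the other lines, ASNS was lower in Karpas299 than in SUPM2 by -1.84 (SE 0.27, adjusted p = 0.00142). DEL minus Karpas299 was 0.77 (adjusted p = 0.153), which became 1.25 and called without the MP array of DEL (adjusted p = 0.0337). DEL was lower than SUPM2 by -1.07 (adjusted p = 0.0329), a call lost after centring (adjusted p = 0.0527) and in a fit of the 6 arrays of these 3 lines alone (adjusted p = 0.163). It was lost as well without the MP array of DEL (-0.60, adjusted p = 0.317), the SP array of SUPM2 (-0.98, adjusted p = 0.155) or the MP array of SUPM2 (-1.16, adjusted p = 0.0929).

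TRIB3, a pseudokinase induced by stress that feeds back on ATF4, had the widest range of the 5. It had 4.88, 5.01 and 5.07 in SP and 4.53, 4.77 and 4.73 in MP cells of SUDHL-1, 6.95 in SP and 6.37 in MP cells of DEL, 6.44 in SP and 6.20 in MP cells of Karpas299, and 8.62 in SP and 8.63 in MP cells of SUPM2. All SUDHL-1 arrays were below, and both SUPM2 arrays above, every other array, while DEL and Karpas299 overlapped. SUDHL-1 was lower than SUPM2 by -3.79 (SE 0.15, adjusted p = 3.26e-08), a 13.9-fold ratio that stayed at -3.38 on the log2 scale after centring. TRIB3 was also lower in DEL than in SUPM2 by -1.96 (SE 0.18, adjusted p = 7.74e-05) and lower in Karpas299 than in SUPM2 by -2.31 (SE 0.18, adjusted p = 2.38e-05), whereas DEL minus Karpas299 was 0.34 (adjusted p = 0.408). SUDHL-1 minus DEL was -1.83 and SUDHL-1 minus Karpas299 -1.49 (SE 0.15 each), both called as deposited and after centring.

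CHAC1, which cleaves glutathione, had 5.21, 5.46 and 5.67 in SP and 5.27, 5.42 and 5.55 in MP cells of SUDHL-1, 6.88 in SP and 6.28 in MP cells of DEL, 6.86 in SP and 5.85 in MP cells of Karpas299, and 8.25 in SP and 8.16 in MP cells of SUPM2. SUPM2 stood clear of the rest, and SUDHL-1 lay below the overlapping DEL and Karpas299. SUDHL-1 minus SUPM2 was -2.77 (SE 0.22, adjusted p = 3.97e-06), Karpas299 minus SUPM2 -1.85 (SE 0.27, adjusted p = 0.00145) and DEL minus SUPM2 -1.63 (SE 0.27, adjusted p = 0.00366). The last was -1.44 without the MP array of DEL, with an adjusted p of 0.0549. SUDHL-1 was lower than Karpas299 by -0.92 (adjusted p = 0.00588), but by -0.59 after centring (adjusted p = 0.064) and by -0.50 without the SP array of Karpas299 (adjusted p = 0.15), so that call rested on the scaling and on 1 array. SUDHL-1 minus DEL was -1.15 (adjusted p = 0.00183), and -0.80 after centring (adjusted p = 0.0179).

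DDIT4, an inhibitor of the growth kinase complex mTORC1, had 6.28, 5.98 and 6.87 in SP and 6.07, 5.99 and 6.86 in MP cells of SUDHL-1, 8.37 in SP and 7.99 in MP cells of DEL, 8.49 in SP and 7.45 in MP cells of Karpas299, and 9.25 in SP and 8.91 in MP cells of SUPM2. SUDHL-1 was below all other arrays, with SP array 3 and MP array 3 higher than the rest of that line. It was lower than DEL by -1.83, lower than Karpas299 by -1.62 and lower than SUPM2 by -2.74 (SE 0.30 each, adjusted p = 0.000679, 0.00135 and 3.58e-05), and after centring these were -1.49, -1.29 and -2.33, all called. The remaining 3 pairs were not called, with Karpas299 minus SUPM2 the nearest at -1.12 (adjusted p = 0.0831, and 0.0321 without MP array 3 of SUDHL-1).

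SESN2, a sestrin that holds back mTORC1 when leucine is short, had 5.23, 5.32 and 6.04 in SP and 5.47, 5.71 and 5.77 in MP cells of SUDHL-1, 7.01 in SP and 6.44 in MP cells of DEL, 6.64 in SP and 5.68 in MP cells of Karpas299, and 7.87 in SP and 7.54 in MP cells of SUPM2. SUPM2 was again above every other array, and the MP array of Karpas299 fell within the SUDHL-1 values. SUDHL-1 was lower than SUPM2 by -2.11 (SE 0.27, adjusted p = 9.85e-05) and lower than DEL by -1.13 (adjusted p = 0.00612, but 0.101 without the SP array of DEL). DEL minus SUPM2 was -0.98 and not called (adjusted p = 0.102). Karpas299 was lower than SUPM2 by -1.54 (adjusted p = 0.0124). That call was lost without the MP array of Karpas299 (-1.11, adjusted p = 0.138), the SP array of SUPM2 (-1.50, adjusted p = 0.068) or the MP array of SUPM2 (-1.59, adjusted p = 0.0583). SUDHL-1 minus Karpas299 was -0.57 and not called (adjusted p = 0.0997), but without the MP array of Karpas299 it was called with an adjusted p of 0.0496.

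**Figure D2:**
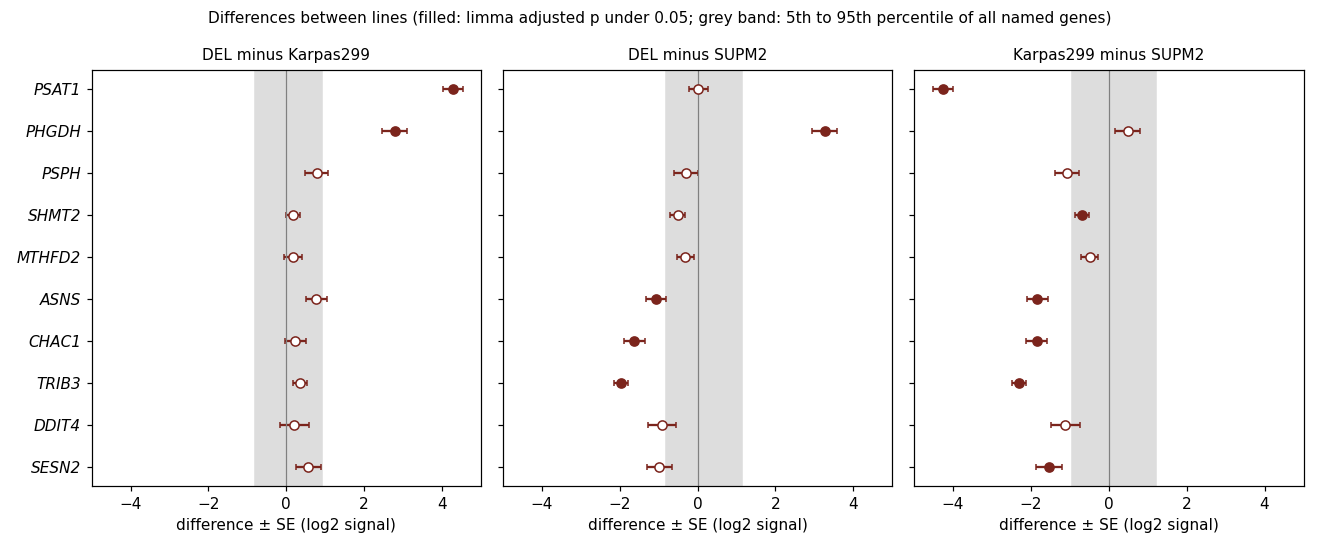
Difference in log2 signal (horizontal axis, with SE bars from limma) of the 10 genes between DEL, Karpas299 and SUPM2, 1 pair of lines per panel, with filled points for an adjusted p under 0.05 and a grey band for the middle of all named genes. PSAT1 (4.28) and PHGDH (2.78) are the filled points of the first panel, PHGDH (3.27) stands opposite ASNS, CHAC1 and TRIB3 in the second, and all filled points of the third are below 0, led by PSAT1 (-4.26) and TRIB3 (-2.31).

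Counted over the 10 genes, 2 were called in DEL minus Karpas299, both higher in DEL, where 5.2% of all named genes were called. DEL minus SUPM2 had 4 called (PHGDH higher in DEL, and ASNS, CHAC1 and TRIB3 lower) against a background of 8.34%, and 2 without the MP array of DEL. Karpas299 minus SUPM2 had 6 called, all lower in Karpas299, against 10.7%. The median of the 10 genes in that pair was -1.33, with -0.05 over all genes.

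In the pairs with SUDHL-1 the background was far higher, so the counts say less. SUDHL-1 minus DEL had 8 of 10 called, all lower in SUDHL-1, with 45.0% of all genes called. SUDHL-1 minus Karpas299 had 6 called, 2 higher (PSAT1 and PHGDH) and 4 lower, with 48.5% of all genes called. SUDHL-1 minus SUPM2 had 9 called, 1 higher (PHGDH) and 8 lower, with 57.4% of all genes called.

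The direction of those background calls moved with the scaling. Over all genes SUDHL-1 minus DEL had 2046 higher and 6234 lower as deposited, 3739 and 2948 after centring, and 2854 and 3394 after a second quantile normalization. SUDHL-1 minus Karpas299 had 2194 higher and 6740 lower as deposited, 3573 and 3194 after centring, and 2924 and 3679 after quantile normalization. SUDHL-1 minus SUPM2 had 2741 higher and 7836 lower as deposited, 4301 and 3337 after centring, and 3376 and 4213 after quantile normalization. SUPM2 was the highest line for 8 of the 10 genes as deposited, 7 after centring and 9 after quantile normalization, where it was the highest line for 38.8%, 23.6% and 29.6% of all named genes.

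Most of the wider set of ATF4 targets also had SUPM2 as the highest line. Of 27 measured targets that are not among the 10 genes, SUPM2 was the highest line for 18 and SUDHL-1 the lowest for 21, against 38.8% and 58.0% of all named genes. After centring these counts were 17 and 19 of 27, against 23.6% and 33.0% of all named genes. Karpas299 minus SUPM2 called 10 of the 27 lower in Karpas299 and 0 higher in limma, and DEL minus SUPM2 called 2 higher and 4 lower. Of all named genes, 10.7% and 8.34% were called in those 2 pairs, in either direction. DEL minus Karpas299 called 3 higher in DEL and 0 lower, against 5.2% of all named genes. The SUDHL-1 pairs called 1 higher and 18 lower against DEL, 2 and 15 against Karpas299, and 1 and 23 against SUPM2. In those pairs 45.0%, 48.5% and 57.4% of all named genes were called as deposited, in a direction that moved with the scaling.

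Some of the called targets serve amino acid supply or are secreted. SLC7A11, the cystine importer, was lower in Karpas299 than in SUPM2 by -3.67 (SE 0.67, adjusted p = 0.0054), and CTH, which makes cysteine, by -3.56 (SE 0.46, adjusted p = 0.000714). GDF15, a stress hormone, was lower in DEL than in SUPM2 by -3.29 (SE 0.27, adjusted p = 3.67e-05) and lower in Karpas299 than in SUPM2 by -3.47 (SE 0.27, adjusted p = 2.38e-05). STC2, a secreted glycoprotein, was higher in DEL than in Karpas299 by 3.33 (SE 0.58, adjusted p = 0.00743), and so was CTH by 2.61 (SE 0.46, adjusted p = 0.0072), the pair in which PSAT1 differed most. VLDLR, a lipoprotein receptor, was lower in SUDHL-1 than in DEL by -4.72 (SE 0.22, adjusted p = 1.31e-07).

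**Figure D3:**
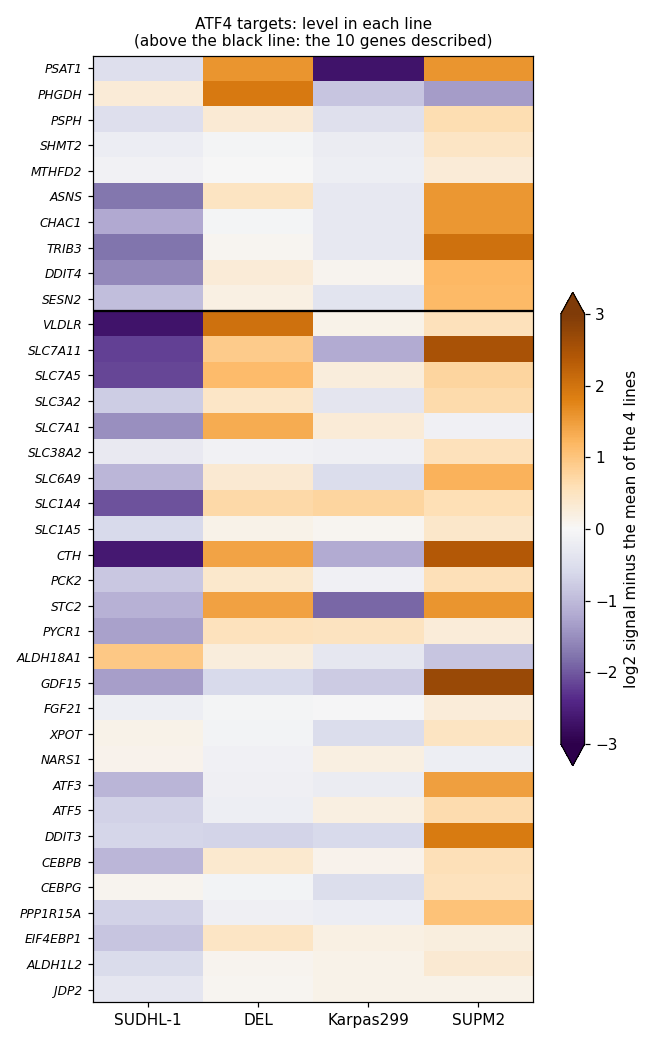
Mean log2 signal of 37 ATF4 targets (rows) in each of the 4 lines (columns), shown as the distance from the mean of the 4 lines, orange above it and purple below. The 10 genes described here are above the black line. The SUPM2 column is mostly orange and the SUDHL-1 column mostly purple, while PHGDH is purple in SUPM2.

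Most of the transcription factors themselves differed as well. DDIT3, ATF3, CEBPB and CEBPG are also among the 27 targets counted above, so they do not add separate genes. ATF4 messenger RNA averaged 11.19 for SUDHL-1, 10.80 for DEL, 10.62 for Karpas299 and 11.44 for SUPM2, and it was lower in Karpas299 than in SUPM2 by -0.82 (SE 0.17, adjusted p = 0.00974). DEL was lower than SUPM2 as well (adjusted p = 0.0396). SUDHL-1 was higher than Karpas299 (adjusted p = 0.00572) and higher than DEL (adjusted p = 0.0363). SUDHL-1 and SUPM2, at opposite ends for the 5 stress genes, were not told apart for ATF4 (adjusted p = 0.143). ATF4 is controlled mainly through translation of its messenger RNA, which arrays do not measure.

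DDIT3, a stress factor that pairs with ATF4, averaged 7.38 for SUDHL-1, 7.36 for DEL, 7.42 for Karpas299 and 9.90 for SUPM2. It was lower in SUDHL-1, DEL and Karpas299 than in SUPM2 by -2.52, -2.54 and -2.48 (adjusted p = 0.000113, 0.00283 and 0.00258). ATF3, induced by ATF4, averaged 6.05, 6.95, 6.88 and 8.57 in the same order of lines, and each of the first 3 lines was lower than SUPM2 (adjusted p = 3.88e-05, 0.014 and 0.00923). CEBPB, a partner of ATF4, averaged 5.80, 7.21, 6.95 and 7.41, with SUDHL-1 lower than each other line (adjusted p = 0.000784, 0.00245 and 0.000245).

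CEBPG, another partner, averaged 8.01 for SUDHL-1, 7.85 for DEL, 7.43 for Karpas299 and 8.46 for SUPM2, and no pair of lines was called (lowest adjusted p = 0.054). The eIF2 kinase EIF2AK3, which senses protein folding stress, averaged 6.14, 5.84, 6.28 and 6.00, also with no pair called (lowest adjusted p = 0.26). EIF2AK4, the kinase that senses amino acid shortage, averaged 6.59 for SUDHL-1, 7.66 for DEL, 7.33 for Karpas299 and 7.52 for SUPM2. It was lower in SUDHL-1 than in DEL, Karpas299 and SUPM2 (adjusted p = 0.00557, 0.0299 and 0.00848).

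SUPM2 stood apart in other gene groups too. The G1/S genes, which prepare cells for DNA replication, had list means of 8.59 for SUDHL-1, 8.56 for DEL, 8.88 for Karpas299 and 6.49 for SUPM2, and 15, 18 and 19 of 20 were called higher in SUDHL-1, DEL and Karpas299 than in SUPM2. Of all named genes, 57.4%, 8.34% and 10.7% were called in those pairs, in either direction. CDC6, which loads the replication helicase, was higher in Karpas299 than in SUPM2 by 4.27 (SE 0.41, adjusted p = 0.000109). The p53 targets had list means of 6.76 for SUDHL-1, 6.94 for DEL, 6.42 for Karpas299 and 7.88 for SUPM2. CDKN1A, the cell cycle inhibitor p21, was lower in Karpas299 than in SUPM2 by -3.28 (SE 0.20, adjusted p = 4.17e-06), and TP53INP1 by -4.22 (SE 0.20, adjusted p = 8.72e-07). SESN2 and DDIT4 are known to respond to p53 as well as to ATF4. The part of these differences in the levels of the 10 genes was not tested.

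**Figure D4:**
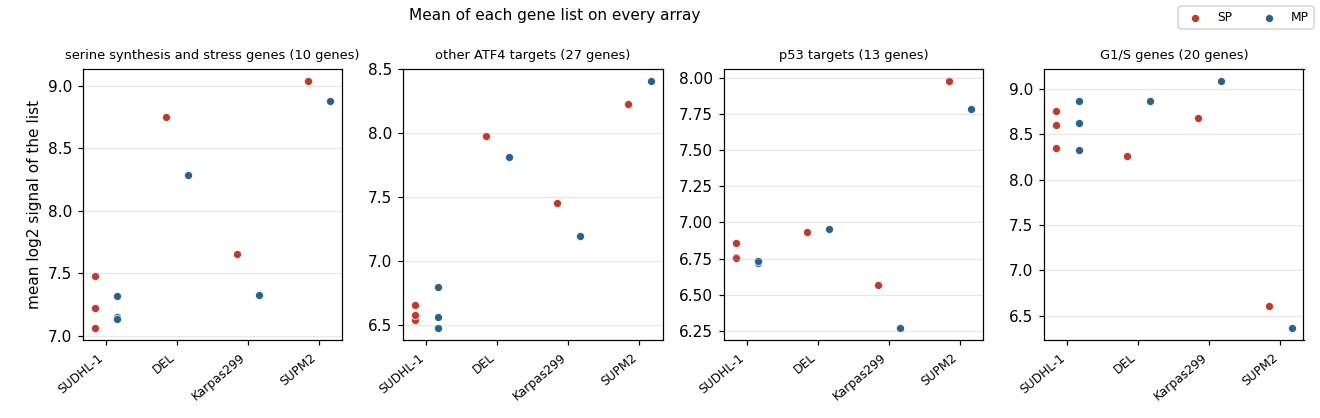
Mean log2 signal of 4 gene lists (vertical axis, own scale in each panel) on every array, by cell line, with SP points left of MP points. On both SUPM2 arrays the 10 genes (9.04 and 8.88), the other ATF4 targets (8.23 and 8.41) and the p53 targets (7.98 and 7.79) are higher, and the G1/S genes (6.61 and 6.36) lower, than on every array of the other lines.

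Other groups tied to ATF4 were mixed. Several of their genes, such as SLC7A11, SLC6A9 and NARS1, are also among the 27 targets counted above. Of all named genes, 10.7% were called in Karpas299 minus SUPM2 and 5.2% in DEL minus Karpas299. Of 19 cytosolic aminoacyl-tRNA synthetases, which load amino acids onto tRNA, 2 were called higher and 10 lower in Karpas299 than in SUPM2, among them AARS1 by -2.09 (adjusted p = 0.0268), GARS1 by -1.73 (adjusted p = 0.000125) and CARS1 by -1.61 (adjusted p = 0.0153). DEL minus Karpas299 called 3 higher and 0 lower, with MARS1 at 1.36 (adjusted p = 0.00492) and EPRS1 at 1.35 (adjusted p = 0.00338). Of 18 amino acid transporters, 4 were called lower in Karpas299 than in SUPM2 and 0 higher. Folding genes of the endoplasmic reticulum had the opposite direction, with 4 of 16 genes of the unfolded protein response called higher in Karpas299 than in SUPM2 and 0 lower, such as PDIA4 at 1.34 (adjusted p = 0.00776).

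The enzymes of serine, glycine and folate metabolism did not move as a block with PSAT1. Of 23 measured, the members included, DEL minus Karpas299 called 2 higher, PSAT1 and PHGDH themselves, and 0 lower. DEL minus SUPM2, in which PSAT1 was not called, had 5 higher, PHGDH among them, and 0 lower. Karpas299 minus SUPM2 called 5 higher and 2 lower, and those 2 were PSAT1 and SHMT2, so no other enzyme was called lower. The shares of all named genes called were 5.2%, 8.34% and 10.7%. MTHFD1, the cytosolic counterpart in the folate cycle, was higher in DEL than in SUPM2 by 1.90 (SE 0.30, adjusted p = 0.00314) and higher in Karpas299 than in SUPM2 by 2.29 (SE 0.30, adjusted p = 0.000866). TYMS, which makes thymidylate and is itself a gene of replicating cells, was higher in Karpas299 than in SUPM2 by 2.12.

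Promoters were read for the letters that ATF4 and its C/EBP partners are known to bind. The motif was TGATGNAA on either strand (TTNCATCA on the opposite one), and the windows were 250 bases before to 50 after each gene start, from RefSeq on GRCh38.p14. A promoter was listed for 8 of the 10 genes, and 2 of those 8, ASNS and CHAC1, held the motif, which 3.62% of 35116 promoters and 3.59% of 14239 measured genes with a promoter also held. In PSAT1, PHGDH, MTHFD2, TRIB3, DDIT4 and SESN2 these letters are not in this window. Over the lists, 11 of 31 ATF4 targets, 7 of 16 tRNA synthetases, 5 of 15 amino acid transporters and 0 of 16 G1/S genes held it.

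The sites of these 2 genes and of 6 regulators and synthetases described above are shown so that they can be compared, with the motif in capitals, 5′ to 3′ along the gene's own strand. ASNS has its site 68 bases before the start, in 1 of its 2 listed promoters, at chr7:97872458-97872487 on the minus strand. CHAC1 has it 209 bases before the start, at chr15:40953251-40953280 on the plus strand. The others are ATF3 (chr1:212565205-212565234, plus), CEBPG (chr19:33374060-33374089, plus), AARS1 (chr16:70289675-70289704, minus), CARS1 (chr11:3057407-3057436, minus), GARS1 (chr7:30594834-30594863, plus) and MARS1 (chr12:57488053-57488082, plus).
ASNS: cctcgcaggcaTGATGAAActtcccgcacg
CHAC1: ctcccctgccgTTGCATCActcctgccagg
ATF3: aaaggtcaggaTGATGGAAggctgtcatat
CEBPG: cgcgcggcgtcTGATGCAAcctgccggcaa
AARS1: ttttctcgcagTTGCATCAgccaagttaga
CARS1: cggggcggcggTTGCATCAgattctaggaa
GARS1: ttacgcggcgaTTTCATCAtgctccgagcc
MARS1: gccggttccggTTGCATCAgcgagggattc
ASNS, ATF3 and CEBPG carry the motif on the strand of the gene and the other 5 on the opposite strand. The variable base makes TGATGAAA in ASNS, TGATGGAA in ATF3 and TGATGCAA in CEBPG. A match describes the letters and is not evidence of binding in these cells.

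Between SP and MP cells, the contrast that chose the genes, PSAT1 was higher in SP cells of every line. In SUDHL-1 the SP mean was 7.62 ± 0.05 and the MP mean 7.16 ± 0.40 (SD, n = 3 each), a difference of 0.46 (SE 0.21), and all 3 SP arrays lay above all 3 MP arrays. The difference was 0.86 in DEL, 0.84 in Karpas299 and 0.36 in SUPM2, and 0.63 ± 0.26 on average (SD, n = 4 lines). MP array 2 of SUDHL-1 (6.70) was the lowest of the 6, and without it the SUDHL-1 difference was 0.23. PSAT1 and TRIB3 were the 2 of 10 genes whose SUDHL-1 SP arrays all exceeded the MP arrays, which 3.74% of named genes did.

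CHAC1 and DDIT4 were also higher in SP cells of all 4 lines, which with PSAT1 makes 3 of 10, against 8.09% of named genes. As this contrast chose the genes, that share is no evidence about them as a group. CHAC1 differed by 0.04 in SUDHL-1, by 0.60 in DEL, by 1.01 in Karpas299 and by 0.10 in SUPM2, and DDIT4 by 0.07, 0.38, 1.03 and 0.34 in the same order. In SUDHL-1 both were far smaller than their SE of 0.17 and 0.31, and the SP and MP arrays overlapped. Their averages over the 4 lines were 0.44 ± 0.46 and 0.46 ± 0.41, and without Karpas299, which has 1 array per population, 0.24 for CHAC1 and 0.26 for DDIT4.

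SESN2 followed the same course, at -0.12 for SUDHL-1, 0.56 for DEL, 0.97 for Karpas299 and 0.32 for SUPM2. TRIB3 was at 0.31 (SE 0.14), 0.59, 0.24 and -0.01, so SUPM2, where its level was highest, had the smallest gap between SP and MP cells. ASNS was split, at -0.07 for SUDHL-1, 0.85 for DEL, -0.47 for Karpas299 and 0.21 for SUPM2. Karpas299 therefore had SESN2, DDIT4 and CHAC1 higher and ASNS lower in SP cells.

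The other enzymes of serine synthesis did not share the PSAT1 difference. PHGDH was at -0.0092, 0.09, 0.09 and -0.21 in SUDHL-1, DEL, Karpas299 and SUPM2, PSPH at -0.28, 0.51, -0.07 and 0.37, and MTHFD2 at 0.11, 0.23, -0.28 and 0.17. The second PSPH probe set gave a wide gap in Karpas299, at 5.49 in SP and 2.74 in MP cells. With both PSPH probe sets averaged, the mean over the lines was 0.39 (SD 0.70), against 0.13 (SD 0.37), and SUDHL-1 was at -0.31. SHMT2 varied least, between -0.07 and 0.04 in all lines. DEL was the line in which all 10 genes were higher in SP cells, with 6 in SUDHL-1, 6 in Karpas299 and 7 in SUPM2. Of all named genes, 52.7% were higher in SP cells of DEL, 49.9% in those of SUDHL-1, 49.2% in those of Karpas299 and 57.8% in those of SUPM2, so the counts in the last 3 lines are near the background. The SUDHL-1 count was 3 without SP array 3 or without MP array 1, and 9 without SP array 1. It was 5 after quantile normalization and 4 after centring. On average over the lines 8 of 10 were above 0, against 55.6% of named genes, and the choice of the genes fixes much of that count and of the DEL count.

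**Figure D5:**
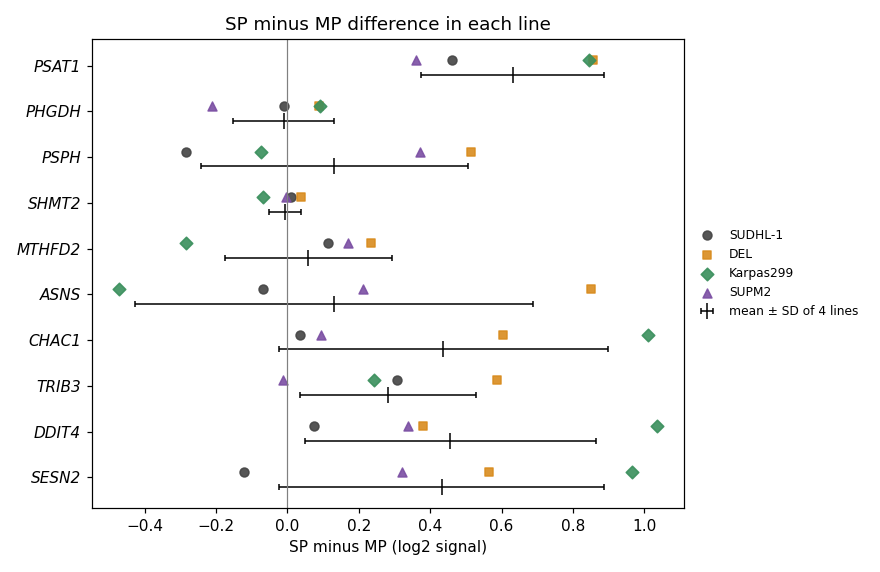
SP minus MP difference in log2 signal (horizontal axis) of the 10 genes in each of the 4 lines (symbols), with the mean ± SD of the 4 lines in black. The symbols of PSAT1 all lie right of 0 (0.36 to 0.86), those of CHAC1, DDIT4 and SESN2 spread up to 1.01, 1.03 and 0.97 in Karpas299, and those of SHMT2 gather at 0.

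Across all genes in SUDHL-1, limma called 0.0% of 18417 genes between SP and MP cells, with 577 at an unadjusted p under 0.05. Cell cycle lists had SP minus MP values of their own: the median difference of the G2/M list was 0.73 for SUDHL-1, 0.28 for DEL, 0.50 for Karpas299 and 1.13 for SUPM2, and that of the G1/S list -0.03, -0.52, -0.44 and 0.17. Their part in the SP minus MP values of the 10 genes was not tested. The median of the 10 genes was 0.02 for SUDHL-1, 0.54 for DEL, 0.17 for Karpas299 and 0.19 for SUPM2.

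Of the 27 other ATF4 targets, 12 were higher in SP cells of SUDHL-1, 18 of DEL, 17 of Karpas299 and 10 of SUPM2. SLC7A11 differed by 0.09, 1.32, 1.84 and -0.33 in those lines, and CTH by -0.36, 0.86, 1.16 and 0.32. XPOT, which exports tRNA from the nucleus, was higher in SP cells of all 4, at 0.06, 0.38, 0.47 and 0.29. ATF4 itself differed by 0.02, 0.34, 0.39 and -0.03, DDIT3 by 0.35, 0.01, 0.86 and -0.10, and SFXN3, a mitochondrial carrier of the sideroflexin family known for serine transport, by -0.68, -1.85, -0.61 and -1.39.

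Genes were also compared with PSAT1 by their 12 values taken relative to the mean of their line, which hold the differences that PSAT1 was picked for. Only genes whose values had a root mean square of at least that of the median gene (0.198) entered. The nearest of these were CBLL1, MIS12, ZFP36L1, ELF2 and KLF6. Their root mean square distances were 0.14, 0.15, 0.15, 0.15 and 0.17, with a median of 0.46 over the 9209 genes compared. Nearness of this kind covers the arrays within each line and not the level of the line. Among the 10 genes, taken without that filter, the nearest to PSAT1 was TRIB3 at 0.27 and the farthest PHGDH at 0.47.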

How the data were processed

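RNA of sorted SP and MP cells was amplified and hybridised to Affymetrix arrays, per the labels' protocols. The deposited values are log2 signals that the authors made with RMA, per the submitters' processing notes. It is not stated whether 1 run of RMA covered all 12 arrays. Arrays have no read depth, so their number limits the precision.

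Probe sets were named through the platform annotation: 19460 of 33297 had 1 symbol, 1754 had several and 12083 had none. Among those with 1 symbol, the probe set with the highest mean stood for each of 18417 genes (769 had several). Lines were compared with limma 3.58.1 (R 4.3.3, lmFit and eBayes) on all 12 arrays with line and population as terms. The 6 pairs were tested two-sided, Benjamini-Hochberg adjusted over all genes at 0.05. The SP and MP array of a line thus served as its replicates. Each SE was pooled over the 12 arrays, with most of the spread from SUDHL-1, and is not that of the compared pair alone. SP minus MP was 1 difference per line, with SUDHL-1 arrays averaged and its SE from limma on 6 arrays. The fits were run on simulated data with shifts of known size, every array drawn independently with the spread of SUDHL-1. That setting differs from the real arrays, so it does not test the p-values between lines. The genes and lists were chosen with earlier results of these data known. Named genes were all 10 members, 7 regulators, up to 4 genes per list by average SP minus MP difference, up to 3 called genes per list and pair of lines, and 5 nearest to PSAT1.

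Alternatives rescaled arrays, averaged probe sets, left out the lowest 25% of genes by signal, changed the variance model, terms or samples, and left out arrays or lines. Leaving out arrays of DEL, Karpas299 and SUPM2 was added after seeing the data.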

Additional observations from a re-analysis of the deposited data

Results flagged for a closer look

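TRIB3 differed in its SP minus MP direction between SUDHL-1 and SUPM2. All 3 SP arrays of SUDHL-1 (4.88, 5.01 and 5.07) lay above all 3 MP arrays (4.53, 4.77 and 4.73), whereas SUPM2 had 8.62 in SP and 8.63 in MP cells, a difference of -0.012. The difference between the lines was not tested, and SUPM2 had 1 array per population.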

How the results depend on the processing

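Of 1110 alternative values for the 60 differences of the 10 genes between lines, 1066 kept their side of the threshold, 31 lost the call, 12 gained it and 1 was called in the opposite direction. Among the 1066, 22 differences not called either way changed sign, to at most 0.34 in size. The opposite call was MTHFD2 in SUDHL-1 minus Karpas299, at -0.89 with probe sets averaged and 0.09 as reported. The number of genes called in DEL minus SUPM2 was 4, and 2 to 4 when 1 array was left out, with the lowest count without the MP array of DEL. The number of genes higher in SP cells of SUDHL-1 was 6, and 3 to 9 when 1 SUDHL-1 array was left out. It was 5 after quantile normalization and 4 after centring. The PSAT1 difference ranged over all alternatives between 0.23 and 0.60 in SUDHL-1 and between 0.56 and 0.72 over the lines. Whether replicate numbers pair the SUDHL-1 arrays is not known. Same-number correlations were -0.0037, -0.08 and -0.13 over genes, and 3 arrays per population are too few to decide it. With the replicate number as a block, the PSAT1 difference stayed at 0.46 (SE 0.21), and 0 genes were called by limma, with 608 at an unadjusted p under 0.05. The causes were not tested. The main limits are 1 array per population in 3 lines, SUDHL-1 arrays of lower median, and probe sets of MTHFD2 and PSPH that differ.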
